A study of Mus musculus with 24 samples.

Results

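Hba-a1, Alas2, Slc4a1, Klf1, Epor, Gata1, Tfrc, and Rhag, a fixed list of 8 genes of the red cell lineage, were followed in the microarray data of CD11b+ cells. They were found on the array by symbol, 8 of the 20659 genes with a symbol. The samples were CD11b+ cells from the spleen or the bone marrow of male mice on a Balb/C background, 10 weeks old. The mice were WT, HDC-KO (without histidine decarboxylase, the enzyme that makes histamine), or STAT6-KO (without the transcription factor STAT6). They were either control mice or mice killed 1, 2, or 4 weeks after acute myocardial infarction (MI). Each of the 24 conditions had 1 one-colour Agilent array, and each array held RNA of CD11b+ cells pooled from 5 mice. Thus no condition had a second array, and the spread between mice was not measured. How CD11b+ cells were purified for the arrays, and whether red cells were lysed, is not stated in the sources used here.

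Complete spot tables were present for 22 of the 24 arrays, 11 for each tissue. Few spots were listed for STAT6-KO bone marrow at MI 1 week and for the HDC-KO control spleen, so these conditions were not used. Levels are given as log2 of the spot signal minus the 75th percentile of the same array, which lay between 928 and 2461 signal units. A difference of 1 on this scale is a 2-fold difference, and levels of different genes cannot be set against each other, since each probe has its own brightness. The 8 genes were well above background on 22 of 22 arrays, and 0 spots were saturated. The arrays of WT MI 1 week stood apart, with 70.4% of probes well above background in spleen and 71.3% in bone marrow, against 75.1% to 79.8% on the other 20 arrays. Arrays with the same scan time were taken as 1 slide. Each slide then held 1 genotype of 1 tissue, so genotype and slide cannot be told apart within a tissue. Time after MI and position on the slide cannot be told apart either.

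The labels were checked first. Hdc ranged from 1.67 to 2.78 on the 7 HDC-KO arrays and from 4.12 to 5.51 on the other 15 arrays, without overlap. Stat6 was still well above background on the 7 STAT6-KO arrays, where it ranged from 1.76 to 2.44, against 2.24 to 3.70 on the other arrays. Where its probe lies relative to the deleted part is not given, so it does not check that label. Itgam, which encodes CD11b, was above background on every complete array, from 3.52 to 4.83 in spleen and from 5.10 to 5.85 in bone marrow.

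Red cells are made from progenitors in the bone marrow and, in mice, in the spleen as well, where output grows under stress such as blood loss or inflammation. The transcription factors GATA1 and KLF1 switch on the genes of haemoglobin, haem, and the red cell membrane, and erythropoietin keeps the progenitors alive through its receptor. The maturing cells take up iron through the transferrin receptor, lose their nucleus, and still carry globin and haem-synthesis mRNA as reticulocytes, while the mRNA of the early factors wanes. CD11b is a myeloid integrin subunit, and red cell precursors are not the cells such a sort aims at. Macrophages of the red pulp and of the erythroblastic islands bind and engulf red cells and their nuclei.

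The 8 genes cover several steps of this programme. Hba-a1 encodes the alpha chain of haemoglobin, and Alas2 the erythroid enzyme for the first step of haem synthesis. Gata1 and Klf1 encode the factors named above, and Epor the erythropoietin receptor. Tfrc encodes the transferrin receptor, which every dividing cell uses. Slc4a1 encodes band 3, the anion exchanger of the red cell membrane, and Rhag the Rh-associated glycoprotein, which carries the Rh complex. The Hba-a1 probe may share signal with Hba-a2, a neighbouring gene with an almost identical product, so the 2 alpha globin genes are uncertain as separate measurements.

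The 250 bases before the start site are shown for the 4 genes that passed the test between tissues, from RefSeq (GRCm38.p6), each 5' to 3' along the gene's strand. Capitals mark matches, on either strand, to a GATA motif (AGATAA or AGATAG, with T also allowed as the first letter) or to a CACCC-type motif (CCNCNCCC), the letters that GATA1 and KLF1 are known to read. Overlapping matches run together.
Hba-a1 (chr11:32283422-32283671, + strand): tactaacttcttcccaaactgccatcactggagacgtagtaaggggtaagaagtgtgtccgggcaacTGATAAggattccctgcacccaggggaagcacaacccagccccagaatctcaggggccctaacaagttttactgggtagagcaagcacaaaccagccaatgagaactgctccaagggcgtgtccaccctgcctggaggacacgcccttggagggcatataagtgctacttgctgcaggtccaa
Alas2 (chrX:150547167-150547416, + strand): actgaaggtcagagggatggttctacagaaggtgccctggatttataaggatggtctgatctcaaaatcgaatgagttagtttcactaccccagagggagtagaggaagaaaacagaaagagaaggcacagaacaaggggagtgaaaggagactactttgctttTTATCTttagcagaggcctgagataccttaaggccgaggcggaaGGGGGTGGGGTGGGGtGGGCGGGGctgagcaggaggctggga
Gata1 (chrX:7967911-7968160, - strand): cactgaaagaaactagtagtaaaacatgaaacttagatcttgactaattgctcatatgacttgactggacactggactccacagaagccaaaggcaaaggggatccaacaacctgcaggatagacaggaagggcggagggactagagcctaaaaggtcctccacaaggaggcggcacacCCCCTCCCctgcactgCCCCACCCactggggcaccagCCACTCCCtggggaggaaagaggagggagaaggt
Rhag (chr17:40810899-40811148, + strand): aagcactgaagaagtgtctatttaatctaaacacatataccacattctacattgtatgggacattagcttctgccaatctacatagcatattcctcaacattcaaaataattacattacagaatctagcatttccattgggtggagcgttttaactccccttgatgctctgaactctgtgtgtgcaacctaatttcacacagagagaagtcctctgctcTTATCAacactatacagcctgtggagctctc
Hba-a1 and Alas2, higher in spleen, each held 1 GATA match, 183 and 86 bases before the start, and so did Rhag, higher in bone marrow, at 31 bases. The Gata1 window held 0 GATA matches and 3 CACCC-type matches, and that of Alas2 held 4 of the latter, 3 of which overlap. The start sites are those of the RefSeq promoter table. The start used for Rhag lies 50 bases inside the annotated span of the gene and that for Gata1 8753 bases inside it, so these windows precede an inner start site. Among the other genes with a sequence, Klf1 and Epor held 1 GATA match each and Tfrc 0. Of 32851 promoters of the same length, 26.5% held a GATA match and 45.9% a CACCC-type match. The windows of Hba-a1 and Hba-a2 shared a run of 247 bases.

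The study asked whether CD11b+ cells of the spleen differ from those of the bone marrow, and 10 pairs of arrays of the same genotype and time allowed this comparison. Hba-a1 and Alas2 were higher in spleen, and Rhag and Gata1 were higher in bone marrow, by limma with Benjamini-Hochberg adjustment over all genes (threshold 0.05). Thus 4 of the 8 genes passed, 2 in each direction, while 54.5% of the 27659 genes and transcripts tested passed, 22.4% higher in spleen and 32.1% higher in bone marrow. The share among the 8 genes was near that of all genes. The median difference of the 8 genes was -0.15, and that of all genes was -0.17. These are bulk samples, in which fewer cells of a type and less RNA per cell cannot be told apart.

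Hba-a1 lay between 2.00 and 5.12 in the 11 spleen arrays, with a median of 3.66. The bone marrow arrays ran from 0.73 to 4.17, with a median of 2.54. The ranges of both tissues overlapped, but spleen was higher in 9 of 10 pairs, the exception being WT MI 4 weeks. The mean difference was 1.03 ± 0.32 (SE, 10 pairs), a 2.04-fold higher signal in spleen (limma, adjusted p = 0.017). Hba-a2 was higher in spleen in 10 of 10 pairs, by 0.72 ± 0.17 (SE), with an adjusted p of 0.00379 in the same fit.

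Alas2 lay between -1.69 and 1.87 in spleen, with a median of 0.05, and between -3.28 and 0.31 in bone marrow, with a median of -1.24. It was higher in spleen in the same 9 pairs as Hba-a1, and lower by 0.45 in the pair WT MI 4 weeks, where Hba-a1 was lower by 0.54. The mean difference was 1.17 ± 0.35 (SE), 2.24-fold (limma, adjusted p = 0.014). The widest differences were 3.18 in STAT6-KO MI 2 weeks, 2.77 in STAT6-KO control, and 2.52 in WT MI 1 week, while STAT6-KO MI 4 weeks was at 0.45 and the 3 HDC-KO pairs lay between 0.10 and 0.82.

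Rhag showed the opposite direction. It lay between -5.85 and -3.72 in spleen, with a median of -4.88, and between -3.96 and -2.20 in bone marrow, with a median of -3.15. The ranges touched only through the bone marrow array of WT MI 1 week, the lowest of its tissue, and the spleen array of WT MI 1 week, the highest of its tissue. Rhag was lower in spleen in 9 of 10 pairs, by a mean of -1.72 ± 0.24 (SE), which is 3.30-fold (limma, adjusted p = 8.45e-05). The size depended on how background was handled, and with the normexp background correction the difference was -1.02 (limma, adjusted p = 2.94e-05).

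Gata1 lay between -0.63 and 0.87 in spleen, with a median of -0.03, and between -0.58 and 1.96 in bone marrow, with a median of 1.06. It was lower in spleen in 8 of 10 pairs, with WT MI 1 week and WT MI 2 weeks as the exceptions. The mean difference was -0.92 ± 0.33 (SE), 1.89-fold (limma, adjusted p = 0.0337), and it did not pass when any 1 of 6 pairs was left out, WT control among them (adjusted p from 0.0576 to 0.0741). Klf1, the partner factor, was lower in spleen in 7 of 10 pairs, by -0.87 ± 0.44 (SE), and did not pass (adjusted p = 0.113). Its pairs ran from -2.77 in WT control to 2.08 in WT MI 1 week, and without the latter pair the difference was -1.20 (limma, adjusted p = 0.0175).

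**Figure D1:**
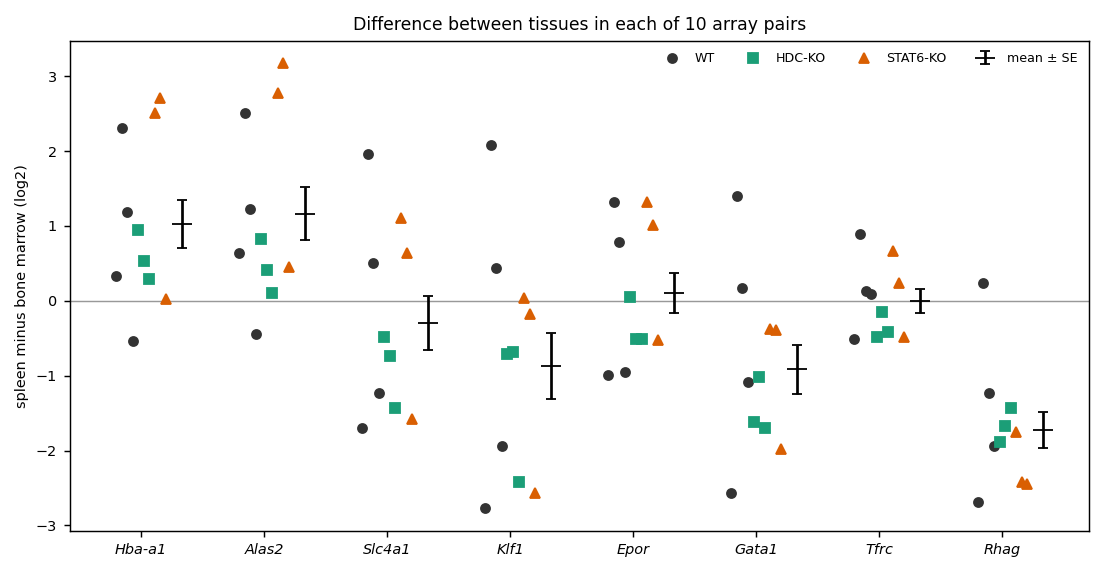
Difference between spleen and bone marrow on the log2 scale (vertical axis) for each of the 8 genes (horizontal axis), 1 point per pair of arrays, coloured by genotype, with the mean ± SE of 10 pairs in black. Hba-a1 and Alas2 lie above 0 in 9 of 10 pairs and Rhag below 0 in 9 of 10, while the pair WT MI 1 week is the highest point for Slc4a1, Klf1, Epor, Gata1, Tfrc, and Rhag.

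The other 3 genes did not pass between tissues. Slc4a1 differed by -0.29 ± 0.36 (SE) and was lower in spleen in 6 of 10 pairs (limma, adjusted p = 0.52). Epor differed by 0.10 ± 0.27 (SE), with 5 pairs in each direction (adjusted p = 0.775). Tfrc had 5 pairs in each direction too, with a mean difference far below its SE of 0.16 (adjusted p = 0.993). Tfrc was read by 3 probes, and the other 2 probes had mean differences of -0.10 and -0.11. In bone marrow these 2 followed the brightest Tfrc probe with r of 0.83 each over 11 arrays, but in spleen with r of 0.37 and 0.40.

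The tissue calls depended on how slides and genotypes were treated. With slide as a random block, since each slide held 1 tissue, Rhag passed (limma, adjusted p = 0.000275) and Hba-a1 (0.0813), Alas2 (0.0659), and Gata1 (0.0745) did not. Without the pair WT MI 1 week, Hba-a1 (0.89, adjusted p = 0.0406), Alas2 (1.02, adjusted p = 0.034), Gata1 (-1.17, adjusted p = 0.00345), and Rhag (-1.94, adjusted p = 4.23e-06) passed. The direction of the 4 genes was the same within each genotype, with mean differences for Alas2 of 0.98, 0.44, and 2.13 in WT, HDC-KO, and STAT6-KO pairs and for Rhag of -1.40, -1.66, and -2.20. The median over all features of the array moved between -0.16 and 0.03 over 7 ways of scaling. Relative to that median, Hba-a1 was higher in spleen by 0.99 to 1.19, Alas2 by 1.00 to 1.33, and Rhag lower by -1.63 to -1.05.

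The 8 genes thus did not share a direction between tissues, and the same is described here within arrays, with no test. From bone marrow to spleen, Alas2 gained on Gata1 by 2.08 ± 1.03 (SD, 10 pairs) and on Rhag by 2.89 ± 1.30 (SD), and did so in 10 of 10 pairs. In the pair WT MI 1 week, where Gata1 was higher in spleen by 1.40, Alas2 was higher by 2.52. In contrast, the difference between Hba-a1 and Alas2 had an SD of 0.18 over the 11 spleen arrays and of 0.22 over the 11 bone marrow arrays. For comparison, Alas2 alone had SDs of 1.03 and 1.14.

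**Figure D2:**
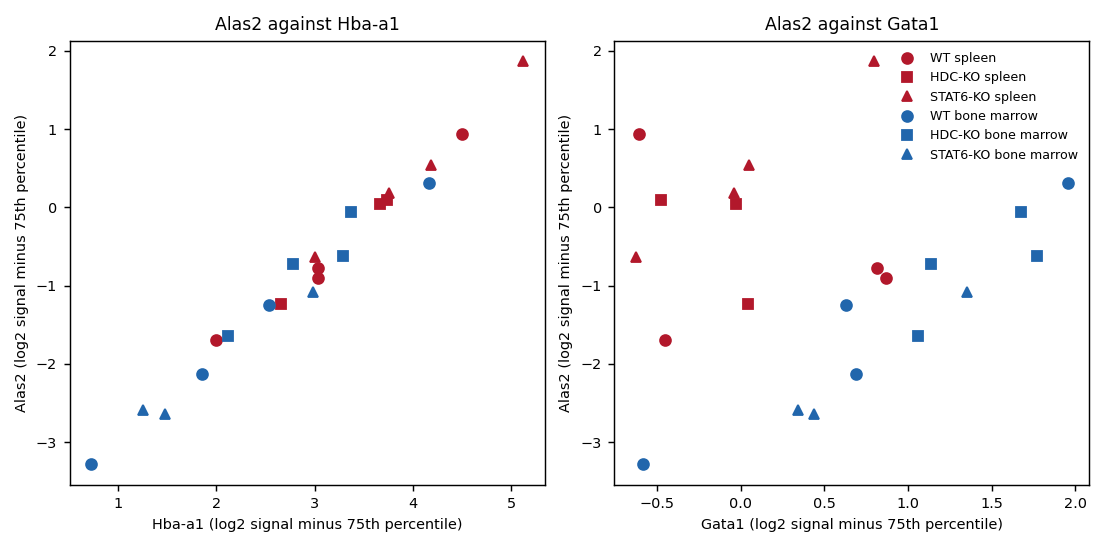
Level of Alas2 (vertical axis) against Hba-a1 (left) and Gata1 (right), both axes in log2 signal minus the 75th percentile, 1 point per array, spleen in red and bone marrow in blue, symbols by genotype. Alas2 and Hba-a1 lie close to 1 line over all 22 arrays, and Alas2 had an r with Gata1 of 0.93 in bone marrow and of 0.11 in spleen (n = 11 each).

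The other genes of the programme were grouped by role, and counts are given from the same limma fit, to be read against the 22.4% of all genes higher in spleen and the 32.1% higher in bone marrow. Of 7 globin genes, 5 rose in spleen and 0 fell, with a median difference of 0.72. Hbb-bt was higher by 1.29 ± 0.21 (SE, adjusted p = 0.000232), Hbb-b2 by 1.17 ± 0.30 (adjusted p = 0.00645), and Hbb-bs by 0.90 ± 0.27 (adjusted p = 0.0151), all adult beta globins, whose copies are near-identical and uncertain as separate measurements. Of the embryonic genes, Hbb-y was higher by 0.70 ± 0.27 (adjusted p = 0.0475), while Hba-x (-1.09, adjusted p = 0.0591) and Hbb-bh1 (-0.46, adjusted p = 0.295) did not pass.

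Of 10 genes of haem synthesis other than Alas2, mitochondrial carriers included, 0 were higher in spleen and 4 were higher in bone marrow, a share near the background of 32.1%. Ppox, which encodes the penultimate enzyme, was lower in spleen by -1.58 ± 0.13 (SE, adjusted p = 1.8e-06). Slc25a37, the iron importer mitoferrin, was lower by -1.04 ± 0.10 (adjusted p = 4.16e-06). Fech, which encodes the enzyme that inserts the iron, differed by 0.31 and did not pass (adjusted p = 0.132). Slc25a38, which encodes the glycine carrier that supplies the ALAS2 step, was lower by -0.39 ± 0.10 (adjusted p = 0.00682).

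Of 16 membrane and skeleton genes, 7 were lower in spleen and 1 was higher, so that about as large a share passed as among all genes (54.5%). Xk, a partner of the Kell antigen, was lower by -2.07 ± 0.26 (SE, adjusted p = 4.04e-05), and Sptb, the beta spectrin, by -0.98 ± 0.30 (adjusted p = 0.0167). Gypc, the glycophorin C gene, was higher by 0.70 ± 0.20 (adjusted p = 0.0101), and 15 of the 16 differences were below 0. The median of this list was -0.57. Of 11 transcription genes, 5 were lower in spleen, among them Myb (-2.18, adjusted p = 7.44e-06) and Nfe2 (-1.79, adjusted p = 1.76e-05), and Bcl11a (1.35, adjusted p = 1.07e-06) and Hemgn (0.54, adjusted p = 0.0129) were higher. Myb and Nfe2 are also active in other progenitors and in megakaryocytes, and Bcl11a is also a B cell factor.

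Of 7 genes of erythropoietin signalling, 4 were higher in spleen and 0 lower, led by Cish (1.33, adjusted p = 0.000277), a feedback inhibitor of cytokine receptors, and Kit (1.08, adjusted p = 0.00011), the stem cell factor receptor. These genes serve many cytokine-responsive cells. Of 8 genes of iron uptake and sensing, Slc11a2 (1.12, adjusted p = 1.15e-05) and Aco1 were higher and Ncoa4 (-1.15, adjusted p = 0.000207) and Steap3 were lower in spleen. Of 11 genes of red cell enzymes and maturation, 2 were higher and 3 lower, with Bpgm at 1.28 (adjusted p = 2.57e-05) and Car1 at -1.11 (adjusted p = 0.000315).

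**Figure D3:**
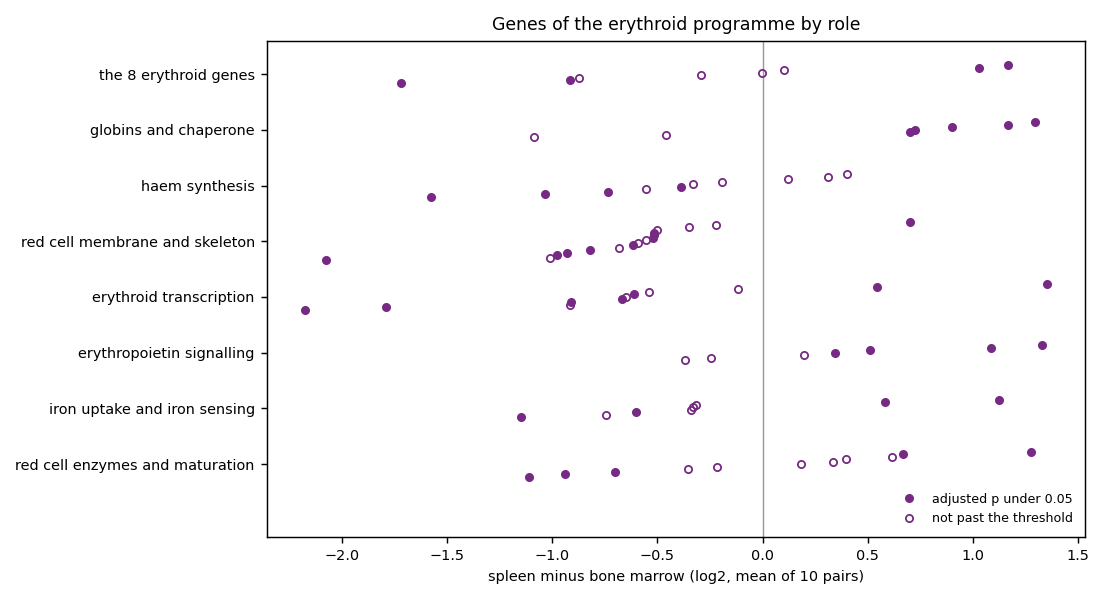
Difference between spleen and bone marrow on the log2 scale (horizontal axis, mean of 10 pairs) for the 8 genes and for 7 lists of erythroid genes by role (vertical axis), 1 point per gene. Filled points have an adjusted p under 0.05 in limma, and 15 of 16 membrane genes lie below 0 while 5 of 7 globin genes lie above it.

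Other cell types differed between the tissues as well, and their part in the results above was not tested. Of 9 markers of red pulp and island macrophages, 8 were higher in spleen, led by Spic (3.72, adjusted p = 1.41e-07), and their summed level lay between 6.39 and 7.65 in spleen and between 5.49 and 6.05 in bone marrow. Megakaryocyte markers were lower in spleen in 7 of 7, with summed levels of 1.21 to 2.96 against 3.11 to 5.29. This lineage shares Gata1 with the red cell. Mast cell and basophil markers, another Gata1 lineage, were lower in 5 of 5, and their summed levels overlapped (1.96 to 5.30 against 2.74 to 5.54). This list includes Hdc, the gene deleted in HDC-KO mice, which had its highest signal (medians 4.46 in spleen and 4.92 in bone marrow). The lowest sum was that of HDC-KO MI 1 week in both tissues, so the summed range does not measure these cells. Cell cycle genes were lower in 5 of 6, neutrophil markers in 6 of 7, and eosinophil markers in 2 of 4, while the eosinophil marker Ccr3 was higher (2.29, adjusted p = 4.77e-07). B cell markers were higher in spleen in 3 of 3, T cell markers in 3 of 4, and Itgam was lower by -1.47 (adjusted p = 5.42e-06). No marker list was absent, since at least 3 markers of every list were above background on each array.

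The levels over the arrays of 1 tissue showed how the genes move together (56 relations, 28 in each tissue, permutation tests with 100000 resamples, Benjamini-Hochberg over the 56). The arrays of a tissue share the genotype slide in sets of 3 or 4. In bone marrow, all 28 relations passed by Pearson's r and by Spearman's rho, with r between 0.77 and 0.99. Within genotypes, that is after removal of each genotype's mean, r lay at 0.74 or higher. In spleen, 14 relations passed by r, 7 by rho, and 6 by both, with r between 0.03 and 0.99 and a median of 0.63. Without the 2 arrays farthest from the median of the gene on the horizontal axis, r was above 0.5 in 28 of 28 relations in bone marrow and in 12 of 28 in spleen.

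The strongest relations in spleen linked Hba-a1 with Alas2 and Klf1 with Gata1. Hba-a1 and Alas2 had an r of 0.99 and a rho of 0.96 (11 arrays, adjusted permutation p = 7e-05 and 0.000187), and Klf1 and Gata1 an r of 0.94 and a rho of 0.91. Alas2 had an r of only 0.03 with Klf1 and 0.11 with Gata1, and rho was -0.14 and -0.11. The r of 0.75 between Hba-a1 and Slc4a1 fell to 0.35 without the 2 arrays farthest from the Hba-a1 median, and that of 0.72 between Hba-a1 and Epor to 0.08, so both rest on those arrays. For Hba-a1 with Alas2 and for Klf1 with Gata1, r without 2 arrays was 0.99 and 0.87. Among 25060 genes, 5.18% had an r above 0.7 with Alas2 in bone marrow and 2.51% in spleen. Of 68 listed erythroid genes, 38 did so in bone marrow and 8 in spleen.

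**Figure D4:**
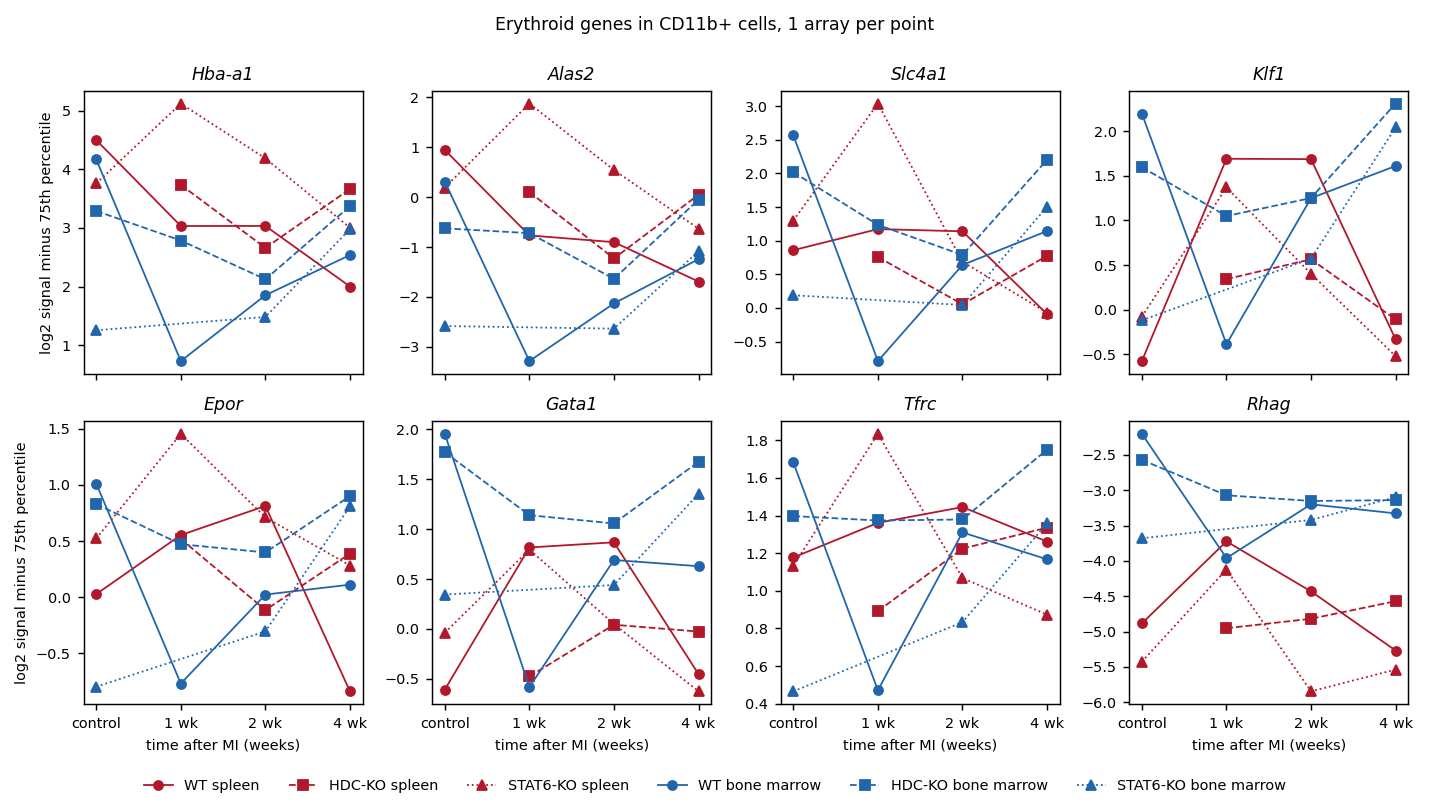
Level of each gene (vertical axes, log2 signal minus the 75th percentile, own scale per panel) by time after MI, from control to 4 weeks (horizontal axis), 1 array per point, spleen in red and bone marrow in blue, genotypes by symbol and line. In bone marrow the WT array is high in control mice and low at MI 1 week for all 8 genes. In spleen the STAT6-KO array at MI 1 week is the highest for 5 genes, for Tfrc by its brightest probe only.

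Single arrays lay at the ends of these ranges. In bone marrow, WT control was the highest array for 6 of the 8 genes and WT MI 1 week, the array with 71.3% of probes well above background, the lowest for 6. Hba-a1 went from 4.17 to 0.73 between them, Alas2 from 0.31 to -3.28, and Slc4a1 from 2.56 to -0.79. These are differences of -3.44, -3.59, and -3.35, or 10.9-fold, 12.1-fold, and 10.2-fold. The 8 genes were all lower at MI 1 week by over 2-fold, against 8.48% of 25000 genes, and so were 38 of 70 other erythroid genes. These arrays were picked for their extreme levels, with 1 array each, so the differences are described and not tested. Between the same arrays, the B cell markers were lower too (median -3.19, 3 of 3 lower). Mast cell and basophil markers (median -1.50, 4 of 5) and megakaryocyte markers (median -0.80, 6 of 7), both of lineages that share Gata1, were also lower. So were eosinophil markers (median -0.52, 3 of 4), red pulp and island macrophage markers (median -0.47, 5 of 9), and cell cycle genes (median -0.45, 6 of 6). Neutrophil markers (median 0.51, 5 of 7) and T cell markers (median 0.40, 3 of 4) were higher. The markers of the CD11b+ gate were higher (median 0.65, 3 of 3). The part of these cells and of the share of probes above background in the difference was not tested.

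A step of that size was not seen in HDC-KO bone marrow, where Hba-a1 was 3.29 in the control array and 2.78, 2.12, and 3.37 at 1, 2, and 4 weeks of MI, respectively. In STAT6-KO bone marrow, whose array at MI 1 week was not used, Hba-a1 was 1.25 in control mice, 1.48 at MI 2 weeks, and 2.98 at MI 4 weeks. The STAT6-KO control array was thus low where the WT control array was high.

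In spleen, the array of STAT6-KO MI 1 week was the highest for 5 genes, Hba-a1 (5.12), Alas2 (1.87), Slc4a1 (3.04), Epor (1.46), and Tfrc (1.83). For Tfrc this holds for the brightest probe only. The other Tfrc probes were highest on WT spleen control (-2.35) and on HDC-KO spleen MI 4 weeks (-1.28). Against STAT6-KO spleen control on the same slide, 5 of the 8 genes were higher by over 2-fold, against 2.58% of 25168 genes. These 5 were Hba-a1, Alas2, Slc4a1, Klf1 (1.45), and Rhag (1.30), while Epor (0.93), Gata1 (0.83), and Tfrc (0.70) were higher by less. The array was picked for its high levels of the same genes, with 1 array each, so the count is described and not tested. Slc4a1 differed most, by 1.74. Of 68 other erythroid genes, 17 were higher by over 2-fold and 1 was lower. The globin list was higher in 4 of 7 and lower in 3 (median 0.31). Hba-a2 went the other way from Hba-a1, with 5.93 on this array and 6.17 in the STAT6-KO control. Its highest spleen array was HDC-KO MI 4 weeks (6.28). Between the same arrays the eosinophil markers were higher in 3 of 4 (median 1.68) and the cell cycle genes in 6 of 6 (median 1.08). The mast cell and basophil markers were higher in 4 of 5 (median 0.83) and the red pulp and island macrophage markers in 7 of 9 (median 0.34). The T cell markers were lower in 4 of 4 (median -1.30), the B cell markers in 3 of 3 (median -0.56), and the neutrophil markers in 4 of 7 (median -0.51). The part of these cells was not tested. In WT spleen from control to MI 1 week, Klf1 went from -0.58 to 1.69 and Gata1 from -0.61 to 0.82, whereas Alas2 went from 0.94 to -0.77 and Hba-a1 from 4.50 to 3.03. Klf1 and Gata1 on one side and Alas2 and Hba-a1 on the other thus had opposite signs between those arrays. Of 25484 genes, 6.38% were higher and 14.4% lower by over 2-fold between them, and so were 3 and 2 of the 8 genes. These arrays too were picked for their levels of the 8 genes, so the counts are described and not tested. Cell cycle genes were higher in 6 of 6 (median 1.37), while T cell markers were lower in 4 of 4 (median -1.49), megakaryocyte markers in 7 of 7 (median -1.31), and red pulp and island macrophage markers in 8 of 9 (median -1.23). Their part was not tested, nor was that of the share of probes above background, 78.4% in control and 70.4% at MI 1 week.

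The effects of genotype and of MI were tested in each tissue over its 11 arrays, with genotype and time as additive terms, so the error is the variation between conditions. Of the 8 genes, 0 passed in each of these comparisons (limma, Benjamini-Hochberg over all genes). For STAT6-KO against WT, 0 of 8 passed in spleen (background 1.95%, 6068 of 26472 genes at an unadjusted p under 0.05) and 0 of 8 in bone marrow (background 4.61%). In spleen, the Alas2 signal was 2.14-fold that of WT, with an SE of 0.56 on the log2 scale (adjusted p = 0.282), that of Hba-a1 differed by 0.88 ± 0.49 (adjusted p = 0.327), and that of Rhag by -0.66 ± 0.34 (adjusted p = 0.288). In bone marrow, 8 of 8 values were below 0, from -0.79 for Alas2 to -0.21 for Gata1, with adjusted p from 0.432 to 0.809. Without the control arrays, 7 of the 8 values were above 0.

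For HDC-KO against WT, 0 of 8 passed in spleen (background 2.8%) and in bone marrow (background 0.443%). In bone marrow the 8 values lay above 0, from 0.19 for Rhag to 0.83 for Alas2, and Gata1 was at 0.74 ± 0.39 (SE, adjusted p = 0.303). The Rhag value changed sign with the normexp background correction (-0.01) and without the arrays of MI 1 week (-0.04). In spleen they ran from -0.61 for Klf1 to 0.45 for Alas2 (adjusted p from 0.37 to 0.93). Both genotypes share the WT arrays, and the WT bone marrow arrays had the widest range of the 3 genotypes for Hba-a1, from 0.73 to 4.17.

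For MI against control, 0 of 8 genes passed in spleen (background 0.00378%, that is 1 gene of 26472) and 0 of 8 in bone marrow (background 0%, with 4530 of 27090 genes at an unadjusted p under 0.05). In these fits, averaged over the times after MI, Klf1 in spleen was the only gene of the 8, in either tissue, with an unadjusted p under 0.05. In spleen 15.7% of all genes were under that threshold. Klf1 was at 1.04 ± 0.38 (SE, limma, adjusted p = 0.262). Its difference was 1.61 at 1 week (adjusted p = 0.0636), 1.36 at 2 weeks (adjusted p = 0.122), and 0.16 at 4 weeks (adjusted p = 0.929), and without the WT arrays the mean difference was 0.50. In bone marrow the 8 values lay below 0, from -0.92 for Slc4a1 to -0.07 for Tfrc. Without the WT arrays 5 of the 8 were above 0, and at 4 weeks alone 6 of the 8. The methods' t-test (fold over 2 and p under 0.05) named 0 of the 8 genes in each of these 6 comparisons. Among all genes it named 792 in spleen and 1113 in bone marrow for STAT6-KO, and 834 and 998 for HDC-KO. For MI it named 123 and 213. The limma fits tested 26472 genes in spleen and 27090 in bone marrow, so 0 of 8 is near the share of all genes.

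**Figure D5:**
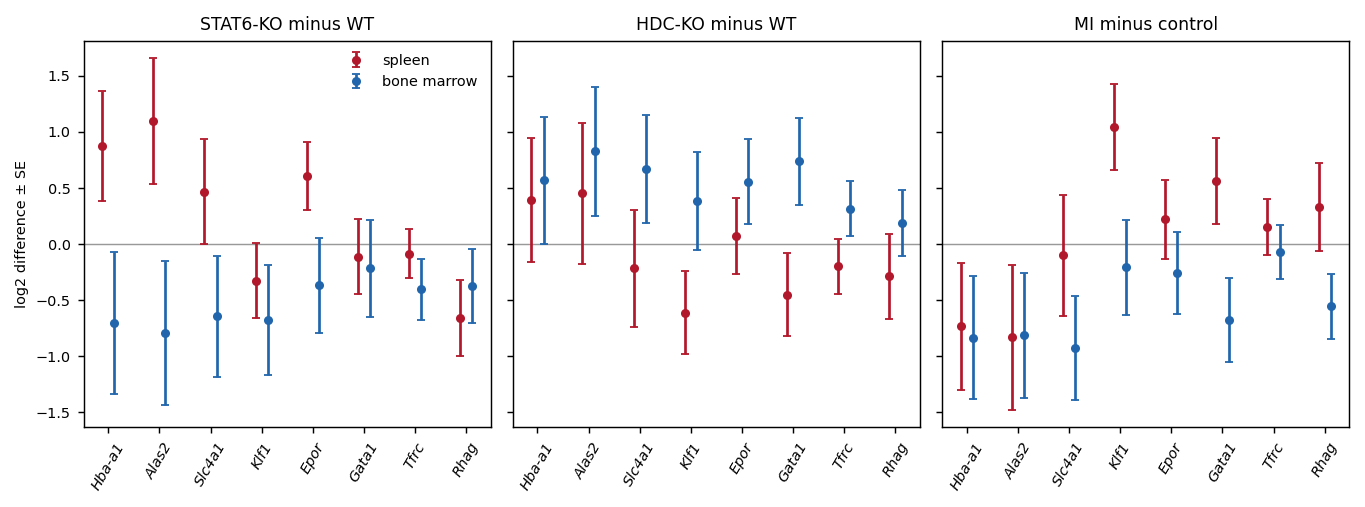
Fitted log2 difference ± SE (vertical axis) of each of the 8 genes (horizontal axis) for STAT6-KO against WT, HDC-KO against WT, and MI against control, in spleen (red) and bone marrow (blue), 11 arrays per tissue. None of the values passed after adjustment over all genes, and the 8 bone marrow values lie below 0 for STAT6-KO and MI and above 0 for HDC-KO, signs that did not hold for all 8 genes without the control arrays (STAT6-KO), the WT arrays (MI) or the arrays of MI 1 week (HDC-KO).

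Whether a genotype acted differently in spleen and bone marrow was tested on the 10 pair differences. For STAT6-KO, 0 of 8 genes passed (background 1.2%, with 5259 of 27659 genes at an unadjusted p under 0.05). Alas2 came nearest, with a spleen effect above the bone marrow effect by 1.47 ± 0.52 (SE, unadjusted p = 0.0269, adjusted p = 0.197), followed by Hba-a1 with 1.23 ± 0.55 (adjusted p = 0.283). For HDC-KO, 0 of 8 passed (background 1.78%), and the 8 values lay below 0, from -1.24 for Gata1 to -0.23 for Hba-a1 (adjusted p from 0.38 to 0.848). Without MI 1 week 2 of these values were above 0.

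The genes most like each of the 8 were named by the highest Pearson's r over 22 arrays after the mean of each tissue was removed, among 16644 genes, as a description. Hba-a1 and Alas2 had the same 5 genes, led by Hbb-b2 with r of 0.99 and 0.98, followed by Hbb-bt, Hbb-bs, Oaf, and 1300017J02Rik. Slc4a1 was followed by Slc6a9 (0.96), the glycine transporter that feeds haem synthesis in red cell precursors, and the membrane gene Epb42 was also among its 5. Klf1 was followed by Add2 (0.97), an adducin of the red cell skeleton, and by Cldn13, Slc43a1, and Gfi1b. Gata1 was followed by Rhd (0.97), Slc38a5, Gstm5, and Aqp1. Epor was followed by Abcb4 (0.93), Blvrb, and Glrx5. Clcn2 (0.85) was among the 5 genes most like Rhag. The r between Rhag and Alas2 was 0.85 in bone marrow and 0.08 in spleen (11 arrays each).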

How the data were processed

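The authors labelled RNA of CD11b+ cells with Cy3, hybridised Agilent mouse arrays, and read them with Feature Extraction 11.0.1.1. The deposited values are spot intensities on a linear scale, background-subtracted and not scaled between arrays. Here 3055 outlier spots were removed, spots of a probe were averaged, and log2 was taken relative to the array's 75th percentile of 43020 non-control spots. Probes were named through RefSeq accessions (20659 genes), the brightest probe stood for a gene, and a fit kept probes above background on 2 or more of its arrays. A summed level is log2 of a list's summed linear signals. Tests used limma 3.58.1 in R 4.3.3 with Benjamini-Hochberg adjustment and were tested on simulated data. Pairs share genotype and time, and the labels do not say that the same mice gave both tissues. The alternatives were other scalings, normexp (offset 50), filters, blocks, the methods' t-test, and leaving out pairs, times, or genotypes. The 8 genes and all lists were chosen with earlier results of these data known. Named genes were the 8, up to 4 of a list with the largest differences past the threshold, and the 5 most correlated genes. Others were named after their values were seen, and some genes these rules select are not reported here. Ahsp, Hbb-b1, Siglec5, Ly6g, and Trac were not matched.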

Additional observations from a re-analysis of the deposited data

Results flagged for a closer look

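Among the spleen minus bone marrow differences of the 8 genes, the pair WT MI 1 week stood apart for Rhag, at 0.24, while the other 9 pairs lay below 0. Its gap to the next pair, divided by the range of the 10 pairs, was 0.503, above the critical value of the Dixon test for 10 values. Chance flags about 1 in 20 groups. Without this pair the Rhag difference was -1.94 (limma, adjusted p = 4.23e-06). The difference of the same pair was the highest for Slc4a1, Klf1, Epor, Gata1, and Tfrc as well, and its 2 arrays had the lowest shares of probes well above background, 70.4% and 71.3%.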

How the results depend on the processing

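The count of the 8 genes that passed was 4 between tissues and 0 in the other 8 comparisons. With slide as a random block the tissue count was 1. It was 0 with WT pairs alone, 2 with HDC-KO pairs alone, and 2 with STAT6-KO pairs alone. Single genotypes have 3 or 4 pairs. The share of all genes that passed between tissues is given here for the main fit only (54.5%). Tissue counts under other settings therefore cannot be set against all genes. Leaving out each pair gave 3 to 5, and leaving out each time, genotype, or pair gave 0 in the other 8 comparisons. Gata1 lost its call with median scaling (adjusted p = 0.0614) and without each of 6 pairs (WT control, WT MI 4 weeks, the 3 HDC-KO pairs, STAT6-KO MI 4 weeks; adjusted p from 0.0576 to 0.0741), and the cause was not tested. Without the pair as a block the count was 4. Between tissues, 22 of 26 alternative counts stayed within 1.5 times. Of 192 alternative gene values 18 lost a call, 1 gained one, and 0 reversed a call. Another 18 values, of genes without a call, changed sign (13 of Tfrc, 4 of Epor, and 1 of Slc4a1). Over all comparisons, 71 of 1088 values changed sign in this way. In the other 8 comparisons no gene had a call to lose, and 0 gained one. The number of arrays limits precision, and Rhag in spleen was the dimmest signal.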
